A study of Rattus norvegicus with 15 samples.

Results

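The mast cell genes described here are 8 symbols, Cma1, Ms4a2, Cpa3, Tpsb2, Tpsab1, Kit, Fcer1a and Mcpt1, of which 7 had a row of their own among the 34357 rows with a gene identifier in the deposited table. They were selected by name, with the lower level of most of them in arteries of deletion rats already known. Their difference between artery genotypes is therefore given below as a description and was not tested. No row carries the symbol Mcpt1, and no value is given under that name. By gene order and span, the gene that RefSeq calls Mcpt1 lies at the place of the row Mcpt2, described below. The row Mcpt1l1, for which RefSeq lists Mcpt1 and rMCP-1 among the older names, is described beside the members. It was added after its values were seen and is not counted among them.

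Mast cells are long-lived tissue cells that lie along blood vessels and store their effector molecules in granules. Connective tissue mast cells pack chymases, tryptases and carboxypeptidase A3 onto heparin-bearing serglycin, together with histamine, and release them when antigen crosslinks IgE on the high-affinity receptor FcεRI. The growth factor receptor KIT, bound by stem cell factor, keeps them alive.

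Total RNA of mesenteric artery and of kidney cortex was sequenced from rats of the Dahl salt-sensitive (SS) strain, in which dietary salt raises blood pressure. All groups share this background. A noncoding stretch of chromosome 2 (60825801 to 60856216, rn7; 30.4 kb), the rat counterpart of a human haplotype block named for the variant rs1173771, was intact in wild-type and removed in deletion rats. The arteries came from 4 libraries of each genotype, and the kidneys from 3 wild-type and 4 deletion libraries. All are titled male, and the labels give no age or diet. The number of founder lines that carry the deletion is not in the labels, nor is the animal behind each library, so the spread between libraries may in part be technical.

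Values are FPKM, fragments scaled by gene length and library size. Read depth is unknown, and the FPKM of a library summed to 285679 to 433477 in artery and 376270 to 459847 in kidney. Several libraries stood apart. The B cell gene Ms4a1 was at 27.0 FPKM in wild-type artery 3 and 24.7 in deletion artery 2, and at most 3.15 in the other arteries. These are the libraries called rich in B cell genes below. Summed over a list of B and plasma cell genes, they had 215 and 138 FPKM. Deletion artery 3 was raised as well, at 61.6, against at most 17.5 in the remaining arteries, and it was kept when those libraries were left out. Haemoglobin genes made up 33.0% of the sum in wild-type artery 4. The gut epithelium gene Fabp2 reached 14.7 FPKM in wild-type artery 1, and the mesothelial gene Msln 82.0 in deletion artery 2. Wild-type kidney 3, titled male, had Xist at 81.1 FPKM, against at most 1.30 in the other libraries.

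The members lie on 6 chromosomes (rn7). Cma1 spans 29417451 to 29420233 on chromosome 15, and Mcpt1l1 lies 484 kb from it at 29903993 to 29906649, in the same chymase cluster. The tryptase genes Tpsab1 (14360396 to 14362811) and Tpsb2 (14381779 to 14383571) are 19.0 kb apart on chromosome 10. The IgE receptor genes are unlinked, with Ms4a2 on chromosome 1 (208440179 to 208448716) and Fcer1a on chromosome 13 (85686099 to 85692394). Kit spans 32547459 to 32624694 on chromosome 14. Cpa3, on chromosome 2 at 102712483 to 102744219, is the sole member on the chromosome of the deletion, 41.9 Mb away from it.

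Promoters are shown for the 4 genes that shared a similar profile across arteries (below) and hold a GATA motif, the kind of site bound by GATA1 and GATA2, which act in mast cell differentiation; they were chosen after these values were seen. Each sequence runs from 250 bases before to 50 bases after the start in RefSeq on GRCr8, a different assembly from that of the deposited table. All 4 are on the minus strand: Cma1 at chr15:33390084-33390383, Cpa3 at chr2:104673188-104673487, Fcer1a at chr13:88224630-88224929 and Mcpt1l1 at chr15:33876846-33877145. Capitals mark the GATA motif on either strand. It was searched with the spelling AGATAA, then with its close relative TGATAA, then with the form that ends in G instead, AGATAG, and last with the remaining combination, TGATAG.
Cma1: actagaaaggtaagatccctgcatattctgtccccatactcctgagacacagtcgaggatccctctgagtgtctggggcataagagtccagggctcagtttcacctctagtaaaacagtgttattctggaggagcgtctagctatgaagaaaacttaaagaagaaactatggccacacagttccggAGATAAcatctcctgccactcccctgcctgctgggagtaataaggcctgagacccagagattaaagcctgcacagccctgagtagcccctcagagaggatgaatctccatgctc
Cpa3: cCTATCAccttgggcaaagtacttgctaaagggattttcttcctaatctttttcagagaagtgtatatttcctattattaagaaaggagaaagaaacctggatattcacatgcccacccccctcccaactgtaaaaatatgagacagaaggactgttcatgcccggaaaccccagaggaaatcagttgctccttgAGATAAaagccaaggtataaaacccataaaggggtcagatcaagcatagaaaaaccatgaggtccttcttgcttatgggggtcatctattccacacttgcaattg
Fcer1a: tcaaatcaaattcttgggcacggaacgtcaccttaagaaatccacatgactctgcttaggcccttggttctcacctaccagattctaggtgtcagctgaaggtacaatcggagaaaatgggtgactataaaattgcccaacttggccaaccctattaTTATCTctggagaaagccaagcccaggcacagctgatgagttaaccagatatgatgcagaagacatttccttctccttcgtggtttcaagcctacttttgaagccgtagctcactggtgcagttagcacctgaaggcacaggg
Mcpt1l1: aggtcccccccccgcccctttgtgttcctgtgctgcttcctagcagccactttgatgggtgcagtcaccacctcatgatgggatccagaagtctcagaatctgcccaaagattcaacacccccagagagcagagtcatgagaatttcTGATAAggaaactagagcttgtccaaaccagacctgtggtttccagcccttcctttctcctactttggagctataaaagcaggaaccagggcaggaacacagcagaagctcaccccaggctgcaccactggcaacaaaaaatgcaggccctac
The motif begins at -64 in Cma1, -55 and -249 in Cpa3, -93 in Fcer1a and -103 in Mcpt1l1, counted from the start. RefSeq's table matched 6 of the 7 measured members, and 3 of these 6 hold the motif, against 30.3% of all 33469 promoters. Tpsb2, Tpsab1 and Kit have no match in this window, and Ms4a2 has no entry. CATGTG, the M-box bound by MITF, is in 3 of the 6 (Cpa3, Tpsb2 and Fcer1a), against 14.0% of promoters, and overlaps none of the GATA matches. These are matches of letters, with no measurement of binding.

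By artery mean, the granule carboxypeptidase and chymase were the most abundant members. For Cpa3, the gene of carboxypeptidase A3, wild-type arteries 1 to 4 gave 17.4, 10.5, 84.9 and 15.6 FPKM, and deletion arteries 1 to 4 gave 11.9, 2.95, 36.0 and 7.73. The highest library of each genotype stood well above its other 3, and the groups overlapped. The wild-type mean was 32.1 ± 35.4 FPKM (SD, n = 4), and that of deletion arteries 14.6 ± 14.7 (SD, n = 4). In kidney, Cpa3 did not exceed 0.0889 FPKM in any library.

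Cma1 encodes the chymase of connective tissue mast cells, which in humans can convert angiotensin I to angiotensin II. Wild-type arteries 1 to 4 held 9.65, 6.68, 35.2 and 9.67 FPKM of it, and deletion arteries 1 to 4 held 4.32, 2.99, 16.0 and 5.21. The same pair of libraries, wild-type 3 and deletion 3, was highest. The other 3 deletion arteries were all below the other 3 wild-type arteries, but the groups overlapped because of deletion 3. Kidney levels were at most 0.201 FPKM.

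Mcpt1l1, a further chymase of the same cluster, was the most abundant of all, with 33.4, 17.2, 114 and 17.7 FPKM from wild-type 1 to 4, then 17.95, 6.81, 56.1 and 10.9 from deletion 1 to 4. It was listed at 0.0590 FPKM or less in each kidney. On GRCr8, RefSeq gives the name Mcpt1 to the gene between Mcpt9 and Mcpt1l1. That place is held in the deposited table by Mcpt2, and both models span 2569 bases. RefSeq lists rMCP-1 and rMCP-2 among the older names of its Mcpt1. Mcpt2, classically a product of mucosal mast cells, was at 5.01 FPKM in wild-type artery 3 and 1.47 in deletion artery 3 and at most 0.766 in the other arteries, 3 of which list it at 0. Reads of such related genes could be divided between them, and the sources used here do not say how they were counted.

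The tryptase genes were low. Tpsb2 (also named Mcpt6) read 1.47, 0.539, 3.34 and 0.633 FPKM from wild-type 1 to 4, then 1.05, 0.189, 1.39 and 0.606 from deletion 1 to 4. Tpsab1 (also named Mcpt7) read 1.32, 0.477, 1.80 and 0.395 FPKM, then 0.613, 0.802, 0.794 and 0.386, in the same order. All 7 kidneys list both at 0. In 7 arteries Tpsab1 stood at 0.539 to 0.901 of the Tpsb2 level, and in deletion artery 2 at 4.25 times it, since Tpsb2 was lowest there and Tpsab1 was not. These are paralogs, so their split is uncertain too.

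The IgE receptor is built of an α chain (Fcer1a), a β chain (Ms4a2) and γ chains (Fcer1g). The wild-type arteries had 1.99, 0.793, 8.96 and 1.62 FPKM of Fcer1a, and the deletion arteries 1.13, 0.240, 3.77 and 0.378. Of Ms4a2 they had 1.61, 0.914, 4.54 and 1.23 FPKM, against 0.943, 0.303, 1.47 and 1.08. Both were highest in wild-type 3 and lowest in deletion 2, with overlapping groups. Of the kidneys, 6 list Fcer1a at 0, and Ms4a2 did not pass 0.0344 FPKM.

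Kit differed from the rest in tissue pattern. The 4 wild-type arteries gave 4.79, 4.13, 10.4 and 3.44 FPKM, and the 4 deletion arteries 5.04, 6.14, 5.59 and 4.24. The 3 wild-type kidneys gave 9.89, 7.89 and 6.86 FPKM, and the 4 deletion kidneys 7.30, 10.4, 6.40 and 7.53. Apart from wild-type artery 3, each artery was below each kidney. Kit is also made by cells other than mast cells. Ano1 and Etv1, which with Kit mark the pacemaker cells of the gut wall, were at 2.78 to 6.18 and 3.01 to 7.70 FPKM in artery. Their part in the Kit level was not tested.

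**Figure D1:**
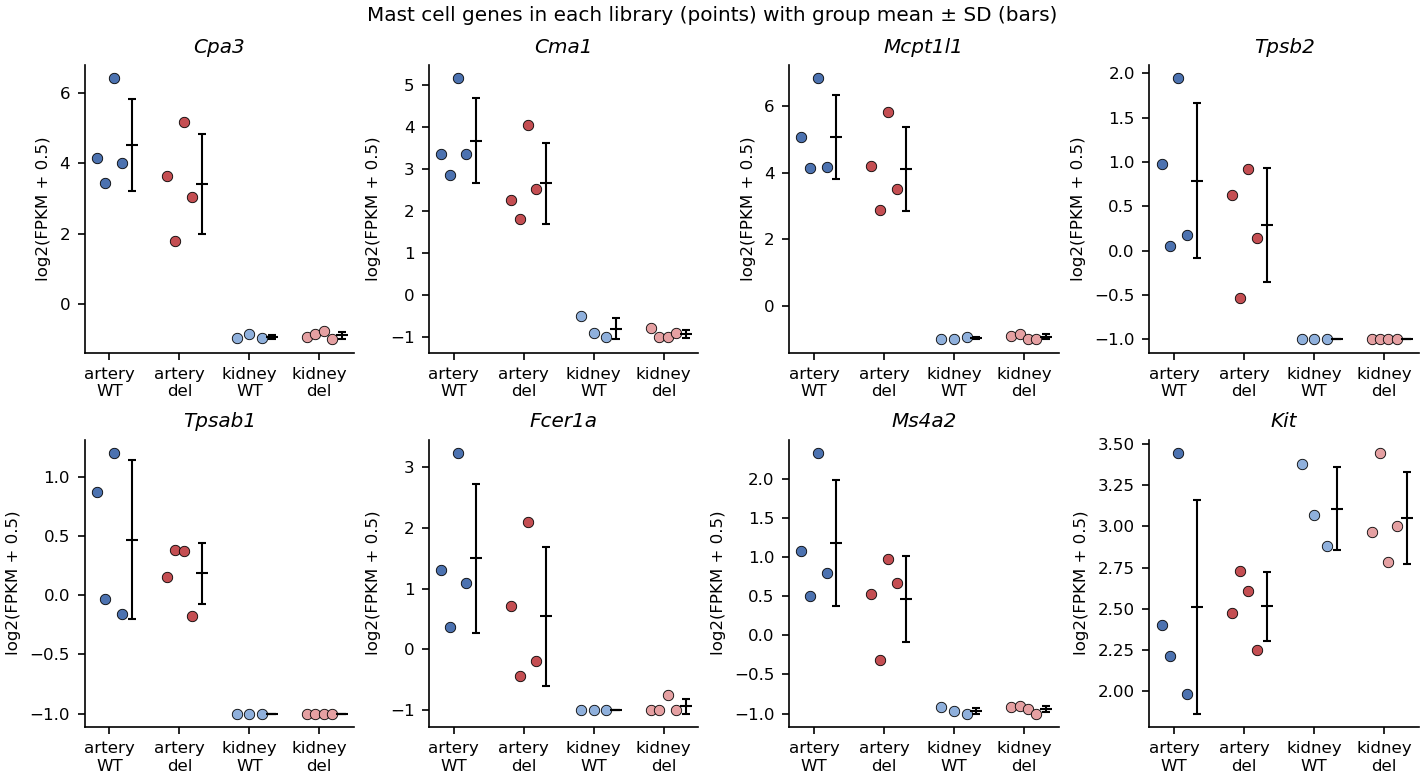
Each panel shows 1 gene as log2(FPKM + 0.5) by group of tissue and genotype (WT, wild-type; del, deletion), with points for libraries and bars for mean ± SD; the vertical axes differ between panels. Apart from Kit, the genes sit near the floor in all 7 kidneys and range widely among arteries of both genotypes.

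The difference between artery genotypes is that on which the genes were selected. On the log2(FPKM + 0.5) scale, which understates changes of low genes, deletion minus wild-type was -1.10 for Cpa3, -1.02 for Cma1, -0.96 for Fcer1a, -0.71 for Ms4a2, -0.50 for Tpsb2, -0.29 for Tpsab1 and 0.0034 for Kit. The median was -0.71, with 6 of 7 lower. For comparison, 40.3% of the 16470 genes tested in artery were lower, with a median difference of 0.0436. Across that whole table limma called 0% of genes (0 of 16470 at an adjusted p under 0.05, and 863 at an unadjusted p under 0.05). The pooled SD within genotypes was 1.36 for Cpa3, 0.99 for Cma1, 1.19 for Fcer1a and 0.69 for Ms4a2 on the same scale. The differences were thus close to or below 1 SD. All 7 members overlapped between genotypes, which is a description only, since the share of all genes that overlap was not counted.

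The size of that difference rested on few libraries. Without wild-type artery 3 the median of the members was -0.33, and without deletion artery 2 it was -0.45. Without both, the libraries rich in B cell genes, it was -0.0522 with 4 of 7 lower. Cpa3 then differed by 0.0795 and Cma1 by -0.24. Wild-type artery 3 was highest for 7 of 7 members, and deletion artery 2 was lowest for 5 of 7. Leaving out either or both was therefore bound to make the difference of most members less negative. No pair chosen the opposite way was left out. In the other direction, the median was -0.94 without wild-type artery 2. In bulk tissue, fewer mast cells and less RNA per mast cell cannot be told apart.

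Variation among arteries was wide. From the lowest to the highest artery, Fcer1a spanned 37.3-fold, Cpa3 28.8-fold, Tpsb2 17.7-fold, Mcpt1l1 16.8-fold, Ms4a2 14.97-fold, Cma1 11.8-fold, Tpsab1 4.66-fold and Kit 3.03-fold. Of the 16190 genes tested in artery that were above 0 in all 8 libraries, the median gene spanned 1.71-fold, and 95% spanned less than 6.44-fold; genes with a 0 in any artery are left out of this comparison. Wild-type artery 3 was highest for 7 of 7 members. Deletion artery 2 was lowest for 5 of 7, the exceptions being Kit, lowest in wild-type 4, and Tpsab1, lowest in deletion 4.

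**Figure D2:**
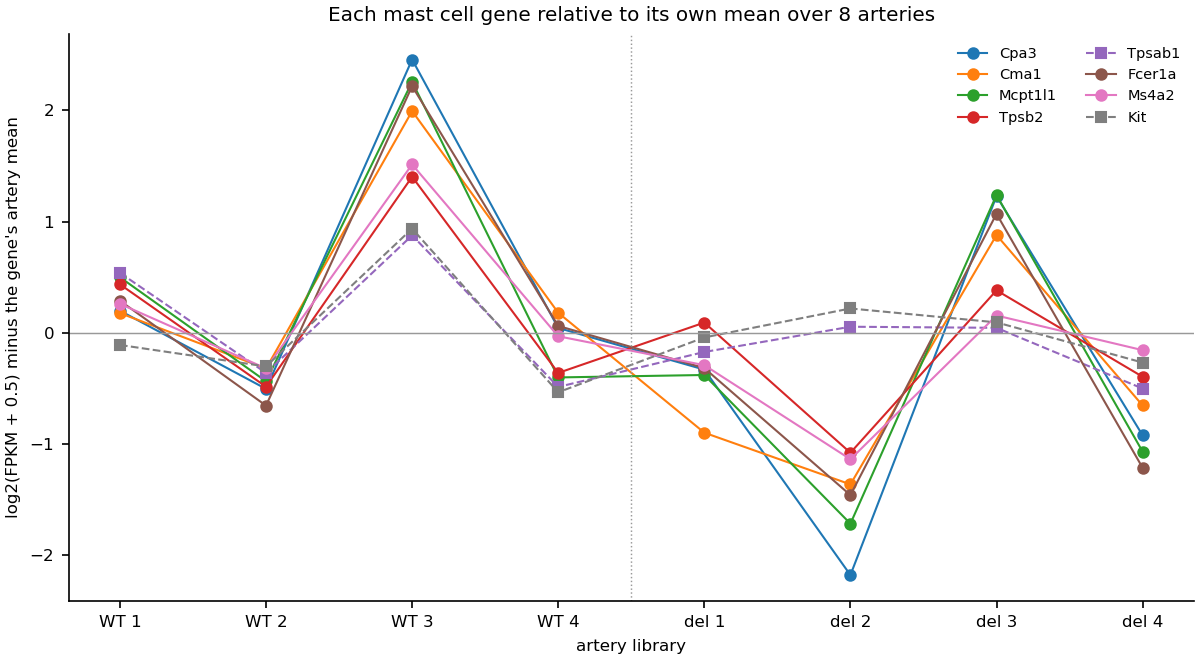
Each line is 1 gene across the 8 artery libraries, as log2(FPKM + 0.5) minus that gene's own artery mean; squares with dashed lines mark Tpsab1 and Kit. All lines peak at wild-type 3, and all but Tpsab1 and Kit dip at deletion 2.

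Most proteases and the IgE receptor chains varied less in proportion to one another than in level. Relative to Cpa3 in the same artery, Mcpt1l1 stood at a ratio of 1.14 to 2.31, Cma1 at 0.363 to 1.02, Fcer1a at 0.0489 to 0.114, Tpsb2 at 0.0387 to 0.0883 and Ms4a2 at 0.0407 to 0.140. These ranges are 2.03-fold to 3.45-fold wide. The ratio of Tpsab1 to Cpa3 ranged 12.8-fold and that of Kit 17.0-fold, both highest in deletion artery 2. The ratios share Cpa3 as denominator.

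**Figure D3:**
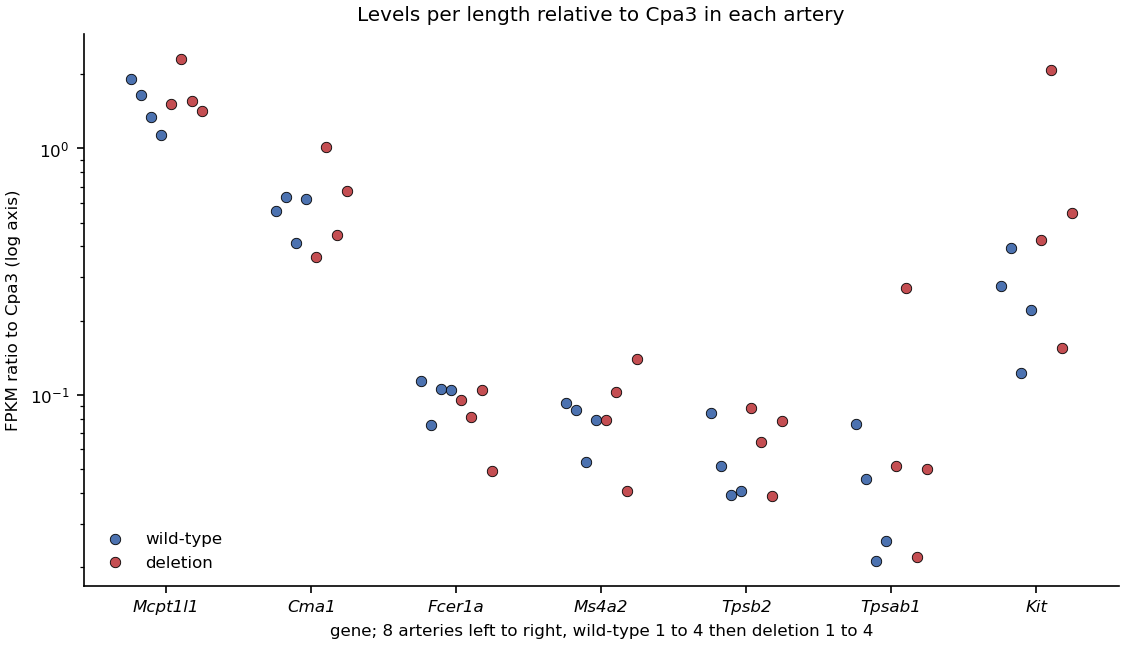
The vertical axis, logarithmic, is the FPKM of each gene divided by that of Cpa3 in the same artery; points are the 8 libraries coloured by genotype. Mcpt1l1, Cma1, Fcer1a, Ms4a2 and Tpsb2 stay in narrow bands, and Tpsab1 and Kit are far higher in deletion 2 than elsewhere.

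Likeness was then measured for each gene as Pearson's r, over the 8 arteries and with genotype means removed, to the mean log2 value of the 7 members. The points share libraries and their scaling, wild-type artery 3 lies far above the rest, and the values are a description. Of 16463 other genes, 244 (1.48%) had r above 0.8. The closest 10 were Mcpt1l1 (r = 0.98), Caap1 (0.97), Adra1b (0.97), Atp5mf (0.97), Snrpa1 (0.97), Cycs (0.96), Cass4 (0.96), mt-Rnr1 (0.96), Uhrf1 (0.96) and RGD1564571 (0.96). Membership of this group was unstable. Leaving out 1 artery kept 1 to 6 of the 10, and leaving out both libraries rich in B cell genes kept 1. Some were also close to the filter of 0.5 FPKM: Adra1b averaged 0.54 in artery, Cass4 0.68, Uhrf1 0.74 and RGD1564571 0.99.

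Other genes of mast cell biology followed in part. Of 5 further granule genes tested, 2 had r above 0.8, Mcpt2 (0.88) and Ctsc (0.88), the latter encoding the cathepsin that activates granule proteases. Mcpt8, at a mean of 0.852 FPKM in artery, fell just short (0.799). Of 10 mediator enzymes, 2 did, Hdc (0.90), which makes histamine, and Hpgds (0.82), which makes prostaglandin D2. Of 14 receptor and IgE signalling genes, 5 did, including Mrgprb3 (0.93), of the receptor family for basic secretagogues, and Fcer1g (0.87). None of 8 transcription factors and none of 7 growth factor and recruitment genes did. Gata2 stood at 0.53, and Kitlg, the gene of the KIT ligand, at 0.62. These values also rested on the 2 libraries rich in B cell genes. Without them, over 6 arteries, Mcpt2 stood at 0.62, Hdc at 0.54, Mrgprb3 at 0.73 and Gata2 at -0.16, while Ctsc (0.89), Hpgds (0.93) and Fcer1g (0.88) stayed above 0.8 and Kitlg stood at 0.81. Mcpt8 rose to 0.90. The receptor and signalling list then had 1 of 14 above 0.8 and the growth factor and recruitment list 2 of 7. The share of all other genes above 0.8 was 6.75%.

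Macrophage genes also followed the members: 4 of 10 had r above 0.8, led by Mrc1 (0.89) and C1qb (0.87), with a median of 0.78. Of 9 T and NK cell genes, 1 did, Cd4 (0.90), with a list median of 0.37. No adipocyte or fibroblast gene listed did. Without the 2 libraries rich in B cell genes, 3 of 10 macrophage and 0 of 9 T and NK cell genes did. So did 4 of 10 adipocyte and 2 of 6 fibroblast genes, so macrophage genes did not stand alone. Summed over the macrophage list, wild-type arteries had 126 to 243 FPKM and deletion arteries 113 to 204, highest in wild-type 3 and deletion 3. The B and plasma cell list had 0 of 8 above 0.8, and 1 of 8 without the 2 libraries rich in B cell genes (Cr2 at 0.91). Its sums were 5.35 to 215 FPKM (wild-type) and 9.51 to 138 (deletion). B cell genes were high in deletion artery 2, where 5 of the 7 members were lowest. The list of eosinophil and basophil genes, cells that share some mast cell products, was mixed. Prss34 and Prg3 were listed at 0 in all 15 libraries, Epx did not exceed 0.132 FPKM, and Prg2, Ccr3 and Il5ra stayed below 1 FPKM in every artery. Siglec5, at 1.998 to 3.85 FPKM, and Alox15, at 8.11 to 318, both also made by other cells, were the only ones tested in artery, with r of 0.37 and -0.40. Without the 2 libraries rich in B cell genes, r was 0.79 and 0.08. The sum of the list was 13.6 to 323 FPKM in wild-type and 12.04 to 44.6 in deletion arteries. Of 7 neutrophil genes, 0 had r above 0.8. Without the 2 libraries rich in B cell genes, 2 did, Mpo (0.88) and Cxcr2 (0.85). Mpo was at 10.3 to 30.4 FPKM in the arteries, highest in deletion 2. The part of other cell types in the differences was not tested.

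**Figure D4:**
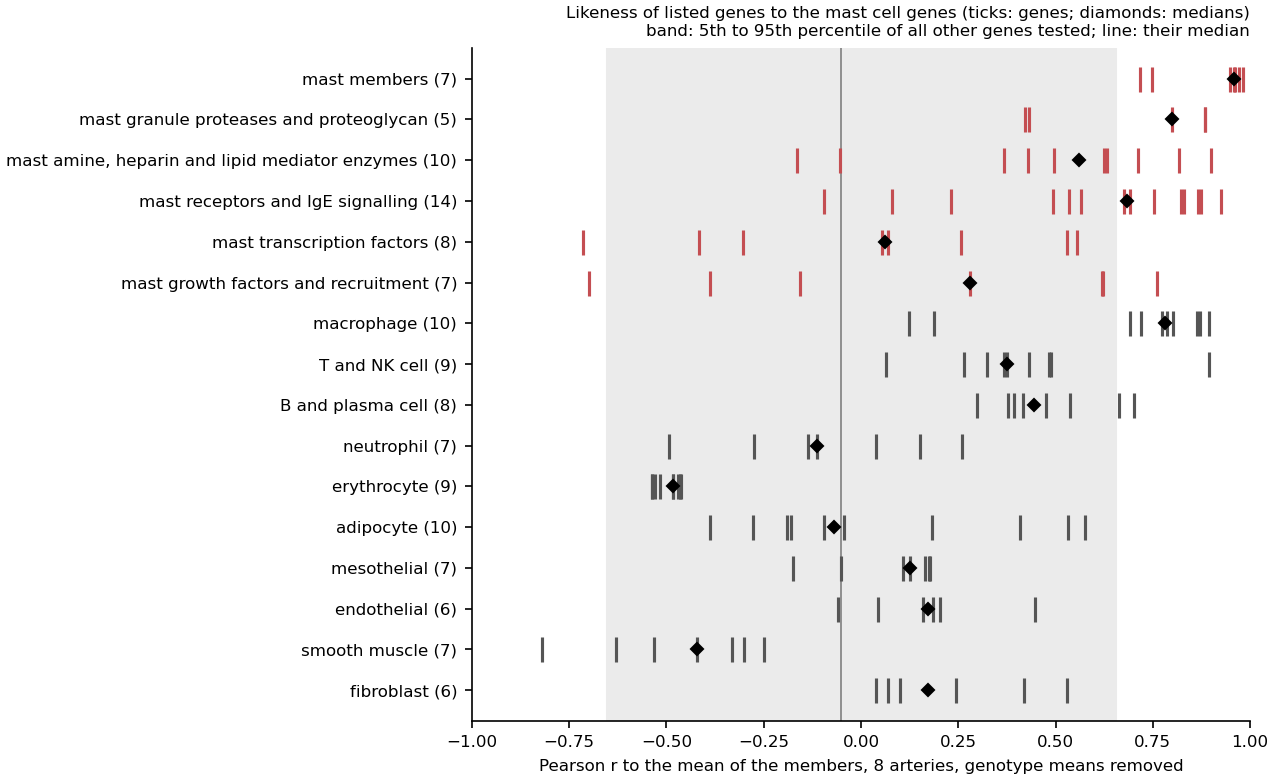
The horizontal axis is Pearson's r to the mean of the members over 8 arteries with genotype means removed; ticks are genes, diamonds list medians, numbers in brackets genes tested, the band the 5th to 95th percentile of all other genes and the line their median. Members enter the mean they are compared with, so their own row is high by construction; the macrophage median is 0.78.

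**Figure D5:**
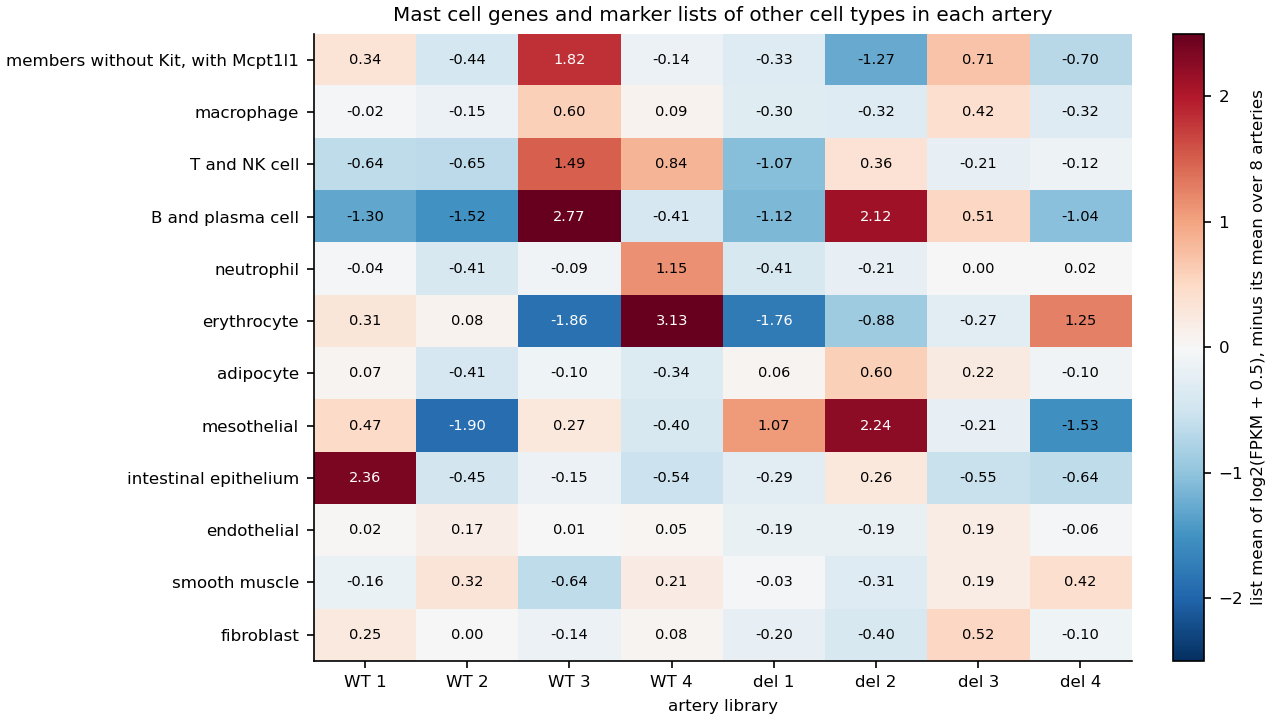
Each cell is the mean log2(FPKM + 0.5) of a marker list in 1 artery minus that list's mean over the 8 arteries; rows are lists, columns libraries. The top row, which leaves out Kit and includes Mcpt1l1, is highest in wild-type 3 (1.82) and lowest in deletion 2 (-1.27), while the B and plasma cell row is high in both (2.77 and 2.12).

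The fixed lists of mast cell biology, which do not include the members, were tested between artery genotypes, with 0 genes called by limma in any list. For comparison, 40.3% of the 16470 genes tested in artery were lower. The counts of lower genes in each list were not repeated without wild-type artery 3 and deletion artery 2, on which the size of the members' difference rested. Of granule genes, 4 of 5 were lower in deletion arteries (median -0.55 log2). The 3 most abundant were Ctsc at a difference of 0.10, Srgn, the serglycin core protein, at -0.61 and Serpinb1a at -0.47, with limma adjusted p of 0.912, 0.893 and 0.908. Of receptor and signalling genes, 13 of 14 were lower (median -0.26), with the most abundant, Cd63, Lyn and Enpp3, at 0.24, -0.15 and -0.02. Of mediator enzymes, 6 of 10 were lower (median -0.14), with Ndst2, Hs3st1 and Maob at 0.14, -0.05 and 0.01. Of transcription factors, 5 of 8 were lower (median -0.16), with Stat5b, Fos and Gata2 at 0.11, -0.72 and -0.18. Of growth factor and recruitment genes, 6 of 7 were lower (median -0.10). For Kitlg the wild-type mean was 25.5 ± 2.14 FPKM (SD, n = 4) and the deletion mean 23.9 ± 4.17 (SD, n = 4). Il33, the gene of an alarmin that acts on mast cells, differed by -0.21 log2, and Cxcl12, a chemokine, by -0.0047. Lists of other blood and immune cells were also mostly lower in deletion arteries, with 0 genes called: 9 of 9 T and NK cell genes (median -0.41), 9 of 10 macrophage genes (median -0.25), 9 of 9 erythrocyte genes (median -0.83) and 5 of 7 neutrophil genes (median -0.64). Of 8 B and plasma cell genes, 3 were lower (median 0.06). Lists of tissue cells went both ways, also with 0 genes called. Lower were 0 of 10 adipocyte (median 0.27), 0 of 7 mesothelial (0.88) and 0 of 7 smooth muscle genes (0.14). So were 5 of 5 intestinal epithelium (median -0.74), 4 of 6 endothelial (-0.18) and 4 of 6 fibroblast genes (-0.02).

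In kidney, the same genotype contrast did not take part in the selection. Only Kit passed the filter of a mean of at least 0.5 FPKM. Its difference was -0.06 log2 with a 95% interval of -0.47 to 0.36 (limma, adjusted p = 0.999 over 15444 genes), within the spread between libraries. Without wild-type kidney 3, whose Xist level goes against its title, it was -0.17. Limma called 0% of genes in kidney (0 of 15444, and 217 at an unadjusted p under 0.05). Of the fixed mast cell lists, limma called 0 genes in kidney as well. The other 6 members were too low there for a comparison.

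Between tissues, averaged over genotypes, limma called 77% of 16856 genes, 41.8% higher in artery and 35.2% higher in kidney, so a call by itself says little about a gene. The members other than Kit could pass the filter only through the arteries, so their direction was fixed by it and they are described without a test. Artery minus kidney was 4.86 log2 for Cpa3 (SE 0.46), 4.03 for Cma1 (SE 0.34) and 5.54 for Mcpt1l1 (SE 0.42). It was 1.99 for Fcer1a, 1.77 for Ms4a2 and 1.54 for Tpsb2, and Tpsab1 fell below the filter.

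Kit went the other way, with an artery mean of 5.47 ± 2.17 FPKM (SD, n = 8) and a kidney mean of 8.04 ± 1.53 (SD, n = 7). The log2 difference was -0.57 (95% interval -0.97 to -0.17, limma adjusted p = 0.0118), with overlapping tissues because of wild-type artery 3. The call was lost when haemoglobin genes and Rn7sl1 were left out of the sum (-0.22, adjusted p = 0.299), and in wild-type libraries alone (-0.60, adjusted p = 0.137). Without wild-type kidney 3 it was -0.63.

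The counts in the fixed lists stand beside 41.8% of all 16856 genes called higher in artery and 35.2% called higher in kidney. Mediator enzymes were called higher in artery for 9 of 10 genes, with 0 lower, including Hpgds at 2.09 log2 and Hdc at 1.396. Hdc was at most 0.330 FPKM in kidney and so was likewise tested only through the arteries. Receptor and signalling genes were called higher for 10 of 13, led by Il1rl1, the receptor of IL-33, at 2.24, and lower for 2, Csf2rb at -2.54 and Cd63 at -1.83. Of 4 granule genes, Srgn was higher at 1.25 and Ctsc and Serpinb1a were lower, at -1.51 and -0.72. Growth factor and recruitment genes were called higher for 5 of 7, among them Kitlg at 0.43, and transcription factors for 5 of 7, among them Gata2 at 1.07. Several of these are also made by other cells of the artery: the macrophage gene Cd163 was higher there by 4.197 log2. In kidney alone, 8 mediator, 11 receptor and signalling and 6 transcription factor genes averaged 0.5 FPKM or more. The other genes of these lists passed the filter between tissues only through the arteries. Their direction was fixed by it, so the counts of these 3 lists are in part set by the filter and describe rather than test.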

How the data were processed

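RNA-seq of total RNA was analysed from 8 mesenteric arteries and 7 kidney cortices. The authors deposited 1 table of FPKM values, 1 column per library. The build rn7 and the tools HISAT2 2.2.1, Trim Galore 0.6.2 and DESeq2 1.46.0 are named, without roles, per the submitters' processing notes. Which tool computed FPKM is not given in the sources. A deposited coverage column tied to no sample was not used. The 6337 rows without an identifier were left out.

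Values were taken as log2(FPKM + 0.5) without further scaling. Genes averaging 0.5 FPKM or more over the libraries compared were tested with limma 3.58.1 in R 4.3.3 (lmFit, eBayes with trend and robust moderation, two-sided, Benjamini-Hochberg adjustment over all genes tested, threshold 0.05). Scripts were tested on simulated data. Genotypes were compared within each tissue, and tissues over 4 group means. Members and lists were chosen with earlier results of these data known. Genes named are the members, the called genes of a list (examples where many) or else its 3 most abundant in artery, and the 10 closest by likeness; others, such as Mcpt1l1, Gata2, Mrgprb3 and marker genes, were chosen after their values were seen. Alternatives covered pseudocounts, filters, scaling, moderation, weights, a replicate block and leaving out libraries. Promoters come from RefSeq on GRCr8. Figures used matplotlib 3.10.9 in Python 3.11.15.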

Additional observations from a re-analysis of the deposited data

Results flagged for a closer look

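In 5 of the 17 groups of 4 libraries examined, 1 library lay farther from the others than Dixon's 95% limit allows. The limit was applied to FPKM, not to log values. It marks about 1 in 20 groups by chance where values are normally distributed, which was not checked and need not hold for FPKM. Whether the 5 would also pass on the log scale used elsewhere was not tested. These genes vary together, so the 5 are not separate events. In wild-type artery 3 these were Mcpt1l1 at 114 FPKM, Cpa3 at 84.9, Cma1 at 35.2 and Fcer1a at 8.96. In deletion artery 3, Cma1 stood at 16.0 FPKM, just past the limit.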

How the results depend on the processing

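The median artery difference of the members stayed negative under its 15 alternatives, from -0.94 to -0.0522. The latter was without both libraries rich in B cell genes, an alternative chosen after seeing the data. These held the highest wild-type and, for most members, the lowest deletion values. That alternative was therefore bound to make the difference less negative. Leaving out 1 artery at a time gave -0.94 (without wild-type 2) to -0.33 (without wild-type 3). With Mcpt1l1 counted, also chosen after seeing the data, it was -0.84. Genes called in artery were 0, but 1 with a pseudocount of 0.1, 1 with haemoglobin genes and Rn7sl1 left out, and 0 to 1 when 1 artery was left out. Genes called in kidney were 0, but 282 with limma array weights, whose fit gave convergence warnings, and 0 to 1 when 1 kidney was left out; the cause was not tested. Leaving out 1 kidney at a time moved the kidney difference of Kit from -0.19 to 0.0772, and it reversed to 0.0772 without wild-type kidney 1 and 0.0312 without deletion kidney 3. Genes called between tissues ranged from 11003 (wild-type libraries only) to 16352, and members called from 4 (filter at 1 FPKM, fewer genes tested) to 7 (no filter). Apart from Kit, which lost its tissue call under 2 alternatives, these counts follow from which members pass the filter and say nothing of stability.

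The replicate numbers did not pair the libraries in a regular way. Same-numbered libraries correlated at -0.34 to 0.32 in their deviations from group means. Of 14 pairs, 5 matched best on their own number, among them artery pairs 1 (0.32) and 4 (0.30). With 3 or 4 libraries per group, this check cannot exclude a pairing. With the replicate number as a block, 0 genes were called in artery and 0 in kidney, 13082 between tissues, and 6 members between tissues. Depth is unknown, so a value listed at 0 sets no upper limit.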
